A study of Mus musculus with 18 samples.

Results

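The glycosyltransferases described here build the sugar chains of mucins and of sialylated glycoproteins and glycolipids. They were taken by gene symbol, as every gene of the deposited tables named *Galnt*, *C1galt*, *Gcnt*, *B3gnt*, *B3galt*, *B4galt*, *B4galnt*, *Fut*, *St3gal*, *St6gal*, *St6galnac* or *St8sia* followed by a number. The rule found 75 of 52636 gene identifiers, with 74 symbols, since *St6galnac2* is listed under 2 overlapping identifiers. The rule uses symbols and no measured value, but it was set with earlier results of these data known. The rule also takes in enzymes of other glycans, such as *Fut8*, which fucosylates the core of N-glycans, and *B4galt7* and *B3galt6*, which build the linker of proteoglycans.

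Mucin-type O-glycans start when a GalNAc transferase of the *Galnt* family links N-acetylgalactosamine to a serine or threonine of the protein. *C1galt1* or *B3gnt6* then sets the core, *Gcnt* enzymes branch it, *B3gnt*, *B3galt* and *B4galt* enzymes extend the chains, and fucosyl- and sialyltransferases cap them. In the colon these glycans make up most of the mass of the mucin molecules that goblet cells secrete, and membrane mucins on absorptive cells carry them too.

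RNA was sequenced from 6 libraries of sorted colon epithelial cells and 12 libraries of isolated colon crypts, 1 mouse each, to learn what Olfr78, an olfactory receptor for short chain fatty acids, does in the colon. The sorted cells came from mice 4 to 7 months old of the Olfr78-GFP line, in which GFP replaces the coding exon of *Olfr78*: 2 Epcam+ve samples of 1 WT mouse, titled Epcam+ve/GFP-ve, 2 pools of Epcam+ve/GFP+ve cells of heterozygous (HE) mice and 2 pools of such cells of homozygous (KO) mice, each pool from 2 mice. The crypts of this line came from 2 WT and 5 KO mice. The Vil1Cre-Olfr78fx line deletes a floxed *Olfr78* exon in the epithelium by Cre under the *Vil1* promoter. Its crypts came from 3 mice titled control and 2 titled eKO. The ages of the crypt donors are not given in the sources used here. The genotype labels read HE/WT for control mice 1 and 3 and WT/HO for control mouse 2. They read HE/HO for eKO mouse 1 and WT/HO for eKO mouse 2, and do not say which allele comes first. The authors give controls as Vil1+/+ with Olfr78fx/fx or Vil1Cre/+ with Olfr78+/+, and eKO mice as Vil1Cre/+ with Olfr78fx/fx. The labels match these genotypes only with *Vil1* first. WT/HO is then floxed without Cre, a control genotype, also for the library titled eKO mouse 2. GFP marks cells in which the *Olfr78* locus is active, so the HE pools hold 1 intact and 1 replaced allele and the KO pools none that is intact.

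*Olfr78*, the gene that both lines target, was at 135 and 21 CP20M in Epcam+ve cells, at 4822 and 4401 in HE cells and at 977 and 837 in KO cells, where CP20M are reads of the gene per 20000000 reads of the library. In crypts it had 88 and 111 CP20M in WT, 42, 23, 27, 28 and 7 in KO, 105, 61 and 124 in control and 21 and 73 in eKO mice. The library titled eKO mouse 2, at 73 CP20M, lay within the range of the controls and has the same genotype label, WT/HO, as control mouse 2. It is called the library labelled eKO 2 below and was kept in its titled group. With eKO mouse 1 left out it is the only eKO library. Counts of called crypt members are given with and without it. So are the log2 fold changes of *St3gal5* and *B3galt5* over both lines and of *St3gal5* in eKO crypts. Other values that rest on it are given with it alone, apart from ranges over left-out libraries. The values count reads on all exons of the gene, so that reads on exons left in place cannot be told apart. *Olfr558*, the neighbouring receptor gene, also had fewer reads in the KO pools (413 and 128 CP20M) than in the HE pools (1588 and 2014), so the GFP+ve pools of the genotypes differ in reads of both receptor genes.

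The reads recovered on genes numbered 532703 to 2237485 in the sorted libraries and 6175298 to 10995286 in the crypts. A single read equalled 37.5 CP20M in KO pool 1, the shallowest library, 8.94 to 13.3 CP20M in the remaining sorted libraries and 1.82 to 3.24 CP20M in crypts. The enteroendocrine markers (10 genes) summed to 14098 and 14243 CP20M in Epcam+ve cells, to 872685 and 1129222 in HE cells and to 616521 and 364137 in KO cells. The GFP+ve libraries therefore bore the markers of their label, but those of other epithelial cells were present in them too. The goblet cell markers (10 genes) summed to 361231 and 315806 CP20M in Epcam+ve cells, to 164100 and 84613 in HE cells and to 69950 in KO pool 1 and 338829 in KO pool 2. The colonocyte markers (8 genes) summed to 99875 and 87889 CP20M, 67778 and 51276, and 22455 and 56476 in the same order. KO pool 2 thus stood apart from KO pool 1 and came near the Epcam+ve samples in goblet cell markers, and HE pool 1 held more of them than HE pool 2. The leukocyte markers (7 genes) summed to at most 162 CP20M in sorted libraries, with *Cd3e* at 0 in each. They summed to 410 to 1517 CP20M in crypts.

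**Figure D1:**
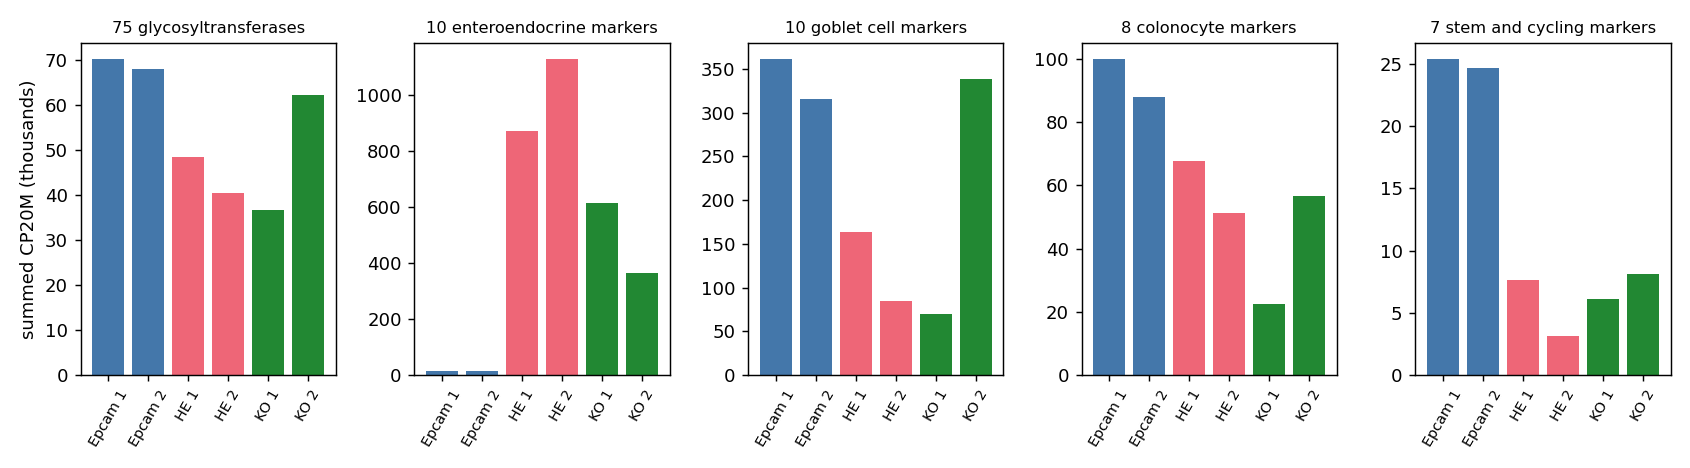
Summed CP20M (axes linear from 0, in units of 1000) of the 75 glycosyltransferases and of 4 lists of cell type markers in each of the 6 sorted libraries. The glycosyltransferases and the goblet cell markers were lower in the HE pools and KO pool 1 than in the Epcam+ve samples, while KO pool 2 had 62149 CP20M of the former and 338829 of the latter.

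Together the 75 genes made up 0.351% and 0.339% of all CP20M in Epcam+ve cells, 0.242% and 0.202% in HE cells and 0.183% and 0.311% in KO pools 1 and 2. In the 12 crypt libraries they made up 0.545% to 0.659%, with no group of crypts apart from the others. All 75 had a read in at least 1 library, 63 reached 40 CP20M in at least 1 library, and 43 reached it in all 18. The 12 that stayed below 40 CP20M everywhere were *Fut7*, *Fut10*, *Galnt14*, *Galnt15*, *Galnt16*, *St6galnac1*, *St6galnac3*, *St6galnac5*, *St8sia1*, *St8sia2*, *St8sia3* and *St8sia6*. The low end was thus held by several genes of the *St8sia* family, which join sialic acids to each other, and by *Fut7*, which makes the selectin ligands of leukocytes.

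Per kilobase of exon, the most abundant of the 75 genes was *B4galnt2*, which makes the Sda antigen, in each of the 7 groups. *B4galnt2* had 6887 CP20M per kilobase in WT crypts, 5831 in control crypts, 4723 in Epcam+ve cells versus 1772 in HE cells. *Gcnt3*, the branching enzyme of mucin cores, followed in crypts with 2563 CP20M per kilobase in WT and 2086 in control mice, and *C1galt1*, which makes core 1, with 1874 and 1478. In the Epcam+ve samples *Gcnt3* had 1340 and *C1galt1* 979 CP20M per kilobase. In the HE pools the second place was held by the shorter identifier of *St6galnac2* with 878 CP20M per kilobase, ahead of *C1galt1* with 708, and the values of these genes overlapped between the pools.

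Of the genes that carry the comparisons below, *B3galt5* (chromosome 16, 96235801 to 96319859, plus strand) encodes the galactosyltransferase of type 1 chains. *St3gal5* (chromosome 6, 72097592 to 72154571, plus strand) encodes GM3 synthase, which makes the first ganglioside. *B3gnt7* (chromosome 1, 86302832 to 86307305, plus strand) extends lactosamine chains, and *B3gnt6* (chromosome 7, 98192417 to 98199481, minus strand) makes core 3 of mucin glycans. Positions are those of the GENCODE annotation of GRCm38, the build of the files. The values count reads over each gene's exons and say nothing of single exons or transcripts. By title, *B3galt5* lay above and *St3gal5* below its controls in crypts of both mouse lines, though neither passed the call over both lines. Bases upstream of their transcription starts (RefSeq, GRCm38.p6) are shown for that reason, read along the plus strand. For *St3gal5* the window was cut at the GENCODE start of the gene, so the bases from there to the RefSeq start were neither shown nor searched. Capitals mark matches, on either strand, to TTTATG, part of the motif of caudal factors, or to CCAAT, the CCAAT box.
B3galt5, chr16:96235551-96235800: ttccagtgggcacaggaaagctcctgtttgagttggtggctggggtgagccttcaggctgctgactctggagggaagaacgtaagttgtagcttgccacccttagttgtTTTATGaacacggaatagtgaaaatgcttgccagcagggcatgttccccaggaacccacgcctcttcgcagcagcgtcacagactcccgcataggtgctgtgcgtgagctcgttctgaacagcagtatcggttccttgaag
St3gal5, chr6:72097358-72097591: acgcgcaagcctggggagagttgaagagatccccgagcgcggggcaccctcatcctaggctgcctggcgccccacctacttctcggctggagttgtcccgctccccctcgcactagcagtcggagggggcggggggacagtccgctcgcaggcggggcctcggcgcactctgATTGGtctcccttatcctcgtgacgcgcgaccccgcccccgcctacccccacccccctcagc
*B3galt5* has 3 starts in the RefSeq table, and the first is shown. Its window held 1 match to TTTATG, which 10.8% of the 32851 windows of 250 bases hold, and none to CCAAT. The window of *St3gal5* held 1 match to CCAAT, which 32.5% of windows of 234 bases hold, and none to TTTATG. Neither window held CAGATG or CAGCTG, letters that bind basic helix-loop-helix factors, or TATAAA. Such matches are letters in a window and show no binding.

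The first comparison asked what sets GFP+ve cells of HE mice apart from epithelial cells at large. Of the glycosyltransferases that differed, 3 times as many were lower as were higher in the HE pools. Of 55 members with at least 40 CP20M in at least 2 of the 4 libraries, 18 fell and 6 rose at an adjusted p under 0.05 (limma on log2(CP20M + 10), Benjamini-Hochberg over all 16355 genes tested). The log2 fold change is written log2FC and its standard error SE below. Over all genes tested, 11.3% fell and 12.5% rose by the same call. Among the 6 members that rose, *B3galt1* and *St6gal2* met the minimum only through the HE pools, so only a rise could be called for them. The median log2 fold change was -0.46 over the members and -0.05 over all genes tested. No member passed the stricter call of an adjusted p under 0.001 with a log2 fold change beyond 2, which 1.58% of all genes passed upward and 0.171% downward. At an unadjusted p under 0.05 there were 34 members (37.2% of all genes). The values of 13 members lay above and of 30 below the Epcam+ve samples without overlap (30.4% and 33.1% of all genes). The Epcam+ve samples are from 1 mouse, so their spread is not that between mice. The count of 24 called members (23.8% of all genes called) was 13 and 12 with Epcam+ve sample 1 or 2 left out (13.7% and 11.8% of all genes), 10 without the trend of the spread (12.3%) and 6 with the KO pools in the same fit (8.96%). In bulk RNA, fewer cells of a type and less RNA per cell cannot be told apart, and markers of several other cell types were lower in the HE pools as well. Of the goblet cell markers 7 of 10 fell, of the stem and cycling markers 5 of 7 (their sum from 25381 and 24690 to 7667 and 3151 CP20M) and of the tuft markers 2 of the 3 tested (sum of all 5 from 1335 and 1276 to 186 and 229 CP20M). Of the 8 colonocyte markers 5 fell and 2 rose, *Krt20* and *Ceacam20* (log2FC 2.76 and 1.30). The part of these markers in the differences was not tested.

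Among the enzymes that start O-glycans, 10 of the 16 were tested, 9 of them had a fold change below 0, and 4 passed. *Galnt5* had 1118 and 1120 CP20M in Epcam+ve cells versus 219 and 94 in HE cells, and fell by 2.87 on the log2 scale (SE 0.41, limma adjusted p = 0.00248). *Galnt7*, which adds to peptides that already carry sugar, had 4666 and 4685 CP20M against 2198 and 2041, log2FC -1.14 (SE 0.17). The HE pools were thus at less than the Epcam+ve samples for both genes with no overlap. *Galnt10* and *Galnt12* were the other 2 that fell, with log2 fold changes of -1.23 and -0.67. *Galnt11*, which also glycosylates receptors of the lipoprotein family, had 456 and 453 CP20M against 817 and 694 and did not pass (limma adjusted p = 0.0859).

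The enzymes of cores and branches split. *Gcnt3* fell, from 5435 and 6092 CP20M in the Epcam+ve samples to 3004 and 1987 in the HE pools, by 1.23 on the log2 scale (SE 0.22, limma adjusted p = 0.00655). *Gcnt2*, which makes the branched I antigen, rose from 90 and 114 CP20M to 334 and 587, at log2FC 2.02 (SE 0.45, limma adjusted p = 0.0145). *Gcnt4*, another core branching enzyme, rose from 251 and 227 to 438 and 654 CP20M, by 1.13 on the log2 scale (SE 0.35, limma adjusted p = 0.0485), a call that was lost under 8 of 13 alternatives, among them DESeq2 and leaving out either Epcam+ve sample. All 3 lay without overlap between the groups. *B3gnt6* had 573 and 576 CP20M in Epcam+ve cells, 438 in HE pool 1 and 134 in HE pool 2, and did not pass (log2FC -1.20, SE 0.51, limma adjusted p = 0.123). The difference between the HE pools was wider for *B3gnt6* than that between HE pool 1 and the Epcam+ve samples.

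Of the 17 chain-extending enzymes tested, 5 fell and 2 rose. *B3galt5* had 2834 and 3236 CP20M in Epcam+ve cells versus 898 and 627 in HE cells, the smallest p-value of all members (log2FC -1.998, SE 0.23, limma adjusted p = 0.00104). *B3gnt7* had 859 and 894 CP20M against 277 and 81, the latter from 24 and 6 reads, and log2FC -2.46 (SE 0.51, limma adjusted p = 0.0115). *B3gnt5*, which starts lacto-series glycolipids, went from 617 and 658 to 127 and 27 CP20M, log2FC -3.18 (SE 0.62). HE pool 2 was the lower of the HE pools for each of these 3 genes. *B4galt4* went from 733 and 812 to 231 and 187 CP20M (log2FC -1.84, SE 0.31), and *B3gnt3* was the fifth to fall. *B4galt6*, which makes lactosylceramide, rose from 1306 and 1172 CP20M to 1934 and 2001, by 0.66 on the log2 scale (SE 0.20, limma adjusted p = 0.0409). That call was lost under 7 of 13 alternatives, DESeq2 and leaving out either Epcam+ve sample among them. *B3galt1*, a further type 1 galactosyltransferase, was listed at 0 in Epcam+ve cells, and HE cells had 58 and 67 CP20M of it, 5 reads each. It met the minimum only through the HE pools, so only a rise could be called. Against 3 reads in each Epcam+ve sample, the limit that a count of 0 allows, the HE mean of *B3galt1* was 2.17-fold higher. That ratio leaves out the counting error of the HE reads. The call of *B3galt1* was lost under 3 of 10 alternatives.

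*B4galnt2* had 8385 and 7880 CP20M in Epcam+ve cells versus 4327 and 1774 in HE cells, so that the most abundant member per kilobase was among those that fell (log2FC -1.55, SE 0.35, limma adjusted p = 0.0159). *B4galnt1*, which makes complex gangliosides, was the other of the 4 *B4galnt* genes to fall. Of 6 fucosyltransferases tested, *Fut4*, which makes the Lewis x antigen, was the one that passed. It had 805 and 740 CP20M in Epcam+ve cells versus 208 and 134 in HE cells, log2FC -2.14 (SE 0.35, limma adjusted p = 0.00428). *Fut2*, the fucosyltransferase of the gut that makes the H antigen, had 1985 and 1829 CP20M against 1485 and 1414 and did not pass.

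Among the 12 sialyltransferase identifiers tested 5 fell and 2 rose, and their median log2 fold change of -1.10 was the lowest of the 6 families. *St6galnac6*, which adds a second sialic acid to type 1 chains, had 2003 and 1675 CP20M in Epcam+ve cells versus 541 and 294 in HE cells (log2FC -2.17, SE 0.31, limma adjusted p = 0.00262). *St6gal1*, the main sialyltransferase of N-glycans, had 733 and 925 CP20M against 254 and 121 (log2FC -2.16, SE 0.41). *St3gal1*, which caps core 1, had 340 and 391 CP20M against 93 and 67 (log2FC -2.07, SE 0.45). Both HE pools were below both Epcam+ve samples for these 3 genes, and HE pool 2 was the lower one each time. *St3gal4* and *St3gal3*, which cap the ends of lactosamine and type 1 chains, were the other 2 to fall. *St3gal5* had 349 and 319 CP20M in Epcam+ve cells versus 150 and 27 in HE cells, the latter from 13 and 2 reads, and lay just outside the call (log2FC -2.16, SE 0.69, limma adjusted p = 0.0545).

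The sialyltransferases that rose were *St6gal2* and *St6galnac2*. *St6gal2*, the relative of *St6gal1* known from brain, was likewise listed at 0 in Epcam+ve cells, while HE cells had 58 and 94 CP20M of it, from 5 and 7 reads. It too met the minimum only through the HE pools, so only a rise could be called. Against 3 reads in each Epcam+ve sample its HE mean was 2.64-fold higher, with the counting error of the HE reads left out. Its call was lost under 4 of 11 alternatives. The shorter identifier of *St6galnac2* (ENSMUSG00000110170) rose from 671 and 555 to 1220 and 1734 CP20M, by 1.24 on the log2 scale (SE 0.26, limma adjusted p = 0.0116). The longer one (ENSMUSG00000057286), whose span contains it on the same strand of chromosome 11, had 1314 and 1110 CP20M against 2210 and 1054 and did not pass. The counting could have split reads between them, so the rise of the one identifier is uncertain.

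**Figure D2:**
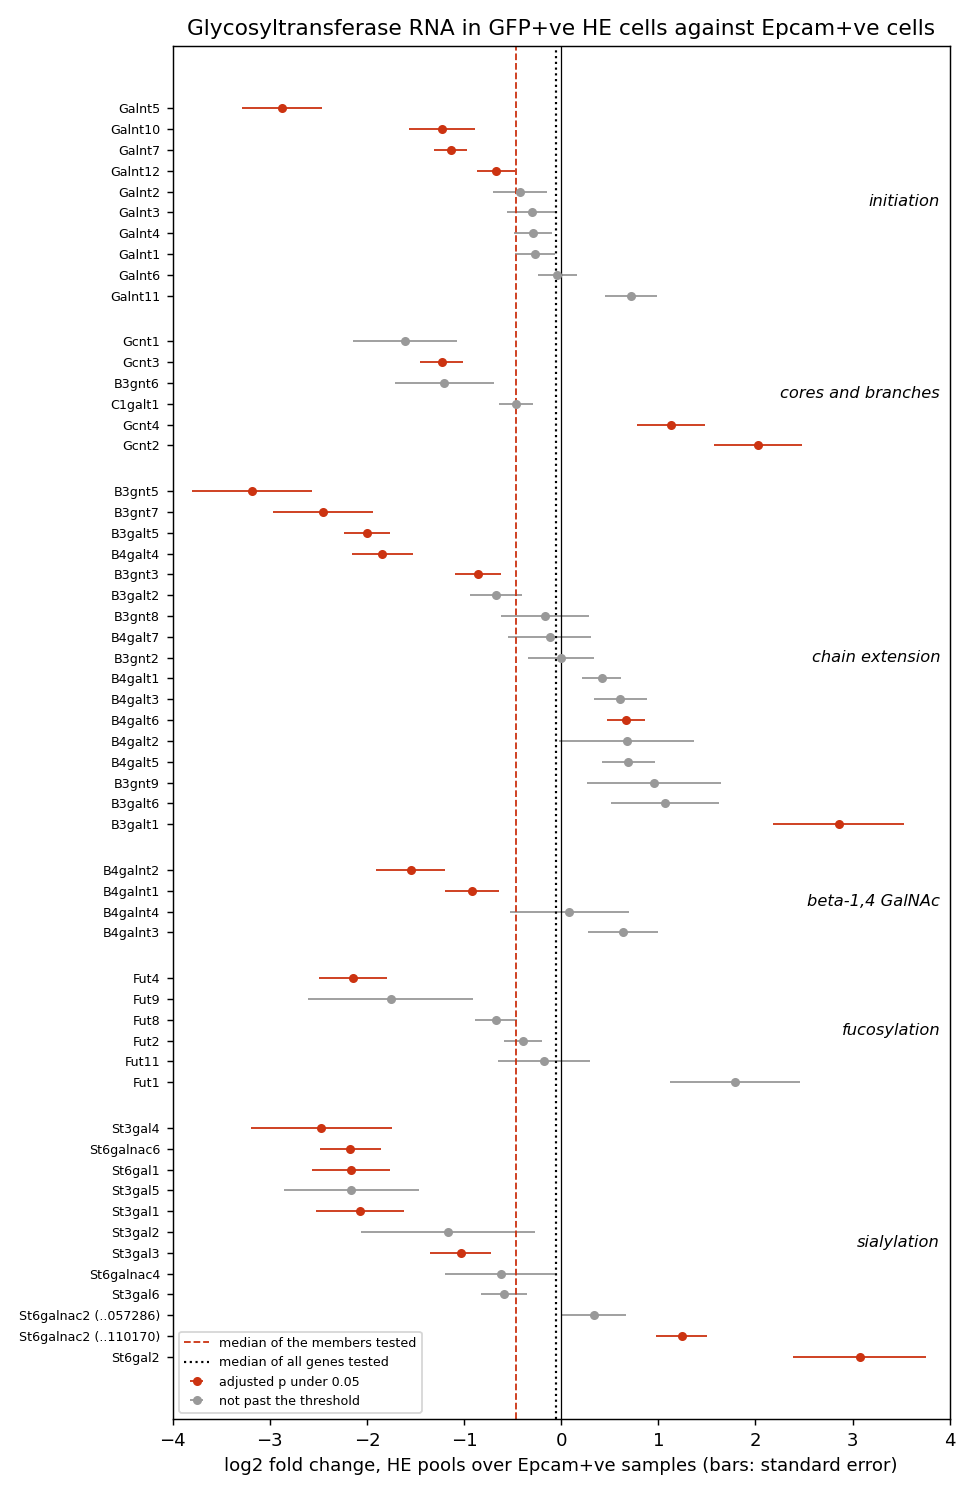
Log2 fold change (log2(CP20M + 10) scale) of HE pools over Epcam+ve samples, with its standard error, for the 55 members tested, grouped by step of the pathway. Red points passed an adjusted p under 0.05 (18 lower, 6 higher), and the dashed and dotted lines mark the medians of the members (-0.46) and of all genes tested (-0.05).

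Genes that feed or receive these enzymes moved in the same comparison. Of 19 tested genes for the synthesis and transport of donor sugars, 14 fell and 1 rose, with a median log2 fold change of -1.30. *Cmah*, which hydroxylates the sialic acid donor, had 2047 and 2158 CP20M in Epcam+ve cells versus 380 and 494 in HE cells (log2FC -2.25, SE 0.24, limma adjusted p = 6.2e-04). *Slc35a1*, the transporter of that donor into the Golgi, fell by 1.77 on the log2 scale, and *Gfpt1*, which commits glucose to hexosamines, by 1.37. *Uap1l1* was the one that rose, from 161 and 144 to 426 and 561 CP20M. Of 5 tested genes for the core 1 chaperone, sulfotransferases and sialidases, 3 fell, namely *C1galt1c1*, the chaperone that *C1galt1* needs, and the sulfotransferases *Chst4* and *Gal3st2*, with log2 fold changes of -1.16, -2.99 and -2.33. Of 11 mucin genes, 5 fell, among them the membrane mucins *Muc3* and *Muc16* (log2FC -1.55 and -3.23) and the gel-forming *Muc5b* (-2.01).

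The second comparison asked what loss of *Olfr78* changed in the cells that would express it. No difference between KO and HE pools passed the test. Of 43 members above 40 CP20M in all 4 pools, 0 had an adjusted p under 0.05 (limma, lowest value among members 0.931), against 0% of the 11892 genes tested. At an unadjusted p under 0.05 there were 5 members, where 4.23% of all genes had one. Without overlap 8 members were higher and 5 lower, as were 8.91% and 26.1% of all genes. The quasi-likelihood test of edgeR called 0 members, and DESeq2 called 1, *B3gnt7*, where 0% and 0.0673% of all genes were called. The median log2 fold change was -0.05 over the members and -0.18 over all genes, and rescaling by median of ratios, which moved the median of all genes by 0.14, turned that of the members to 0.17.

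*B3gnt7* had 277 and 81 CP20M in the HE pools, 864 in KO pool 1 and 2813 in KO pool 2, the widest difference among the members (log2FC 3.28, SE 0.71, limma adjusted p = 0.931). The KO pools were above both HE pools, and KO pool 2 was also above both Epcam+ve samples. With KO pool 2 left out the log2 fold change was 2.44 (adjusted p = 0.0997), and with KO pool 1 left out 4.13, which then passed. *Fut4* had 489 and 884 CP20M in KO pools 1 and 2 against 208 and 134 in the HE pools, and *St6galnac6* 864 and 1883 against 541 and 294 (log2FC 1.91 and 1.65, SEs 0.53 and 0.50). For all 3 genes the higher value was that of KO pool 2. In the other direction *Gcnt4* was at 113 and 245 CP20M in KO cells (3 and 21 reads) and at 438 and 654 in HE cells (log2FC -1.62, SE 0.56). The shorter *St6galnac2* identifier had 902 and 640 against 1220 and 1734 CP20M, and *B4galt6* 1728 and 849 against 1934 and 2001.

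*B3galt5*, *B3gnt6* and *St3gal5* did not separate the KO from the HE pools. *B3galt5* had 639 CP20M in KO pool 1, at the level of the HE pools (898 and 627), and 3382 in KO pool 2, above both Epcam+ve samples, and its log2 fold change of 0.96 (SE 0.68) turned to -0.23 without KO pool 2. *B3gnt6* had 489 and 407 CP20M in the KO pools, between HE pool 2 and the Epcam+ve samples. *St3gal5* reached 76 and 35 CP20M in KO cells (2 and 3 reads), below the minimum for this comparison. By the criterion of the study's methods, a difference of means beyond 2 times the mean of the SDs and a ratio of means beyond 1.5 either way, 4 members were higher (*B3gnt7*, *Fut4*, *St6galnac6* and *B4galt4*) and 3 lower (*Gcnt4*, *B4galt6* and the shorter *St6galnac2*). The criterion took 3.23% of all genes as higher and 9.98% as lower, and it gives no p-value.

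The KO pools differed from each other in the members called between HE pools and Epcam+ve samples. Of these 24 members, KO pool 1 lay nearer to the HE mean on the log2 scale for 17 and KO pool 2 nearer to the Epcam+ve mean for 20. The members were picked by the difference between those same HE and Epcam+ve libraries. The share over all genes called there was not computed, so whether the counts are particular to the members was not tested. In KO pool 2 the goblet cell markers summed to 338829 CP20M against 164100 and 84613 in the HE pools, and the part of these markers in the difference was not tested. With KO pool 1 left out, 7 of 48 members were called between KO and HE pools, 6 higher and 1 lower, as were 2.8% of all genes. With KO pool 2 left out, 0 were called, as were 0.781% of all genes, and in both cases the lone pool was assumed to vary like the HE pools. Of the other pathway genes, 0 of 18 for donor sugars, 0 of 3 of the chaperone, sulfotransferase and sialidase list and 0 of 8 mucins passed between KO and HE pools.

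Against the Epcam+ve samples, which this comparison shares with the first, 0 of 52 members in the KO pools passed (limma, 0.735% of 15779 genes called, 0 members by edgeR or DESeq2), and 7 members had an unadjusted p under 0.05, as did 18.5% of all genes. *St3gal5* had the smallest p (log2FC -2.47, SE 0.59, limma adjusted p = 0.156), with both KO pools below both Epcam+ve samples. *B4galnt1* had 864 and 1314 CP20M in the KO pools against 2208 and 2045, and *Galnt12* 413 and 1162 against 2083 and 1932. *B4galnt3*, which makes the terminal LacdiNAc unit, was the upward member with the smallest p, with 564 and 767 CP20M against 438 and 247. *Galnt11* had 751 and 616 CP20M against 456 and 453. *B3galt5*, *B3gnt7* and *B3gnt6* had log2 fold changes of -1.03, 0.83 and -0.36 (SEs 0.72, 0.55 and 0.33), and the KO pools lay on either side of the Epcam+ve samples for *B3galt5*. Without KO pool 2, 25 members were called lower and 3 higher, where 45.3% of all genes were called, and without KO pool 1, 4 lower and 3 higher, where 9.96% were. The lone pool was then assumed to vary like the Epcam+ve samples, which are from 1 mouse.

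**Figure D3:**
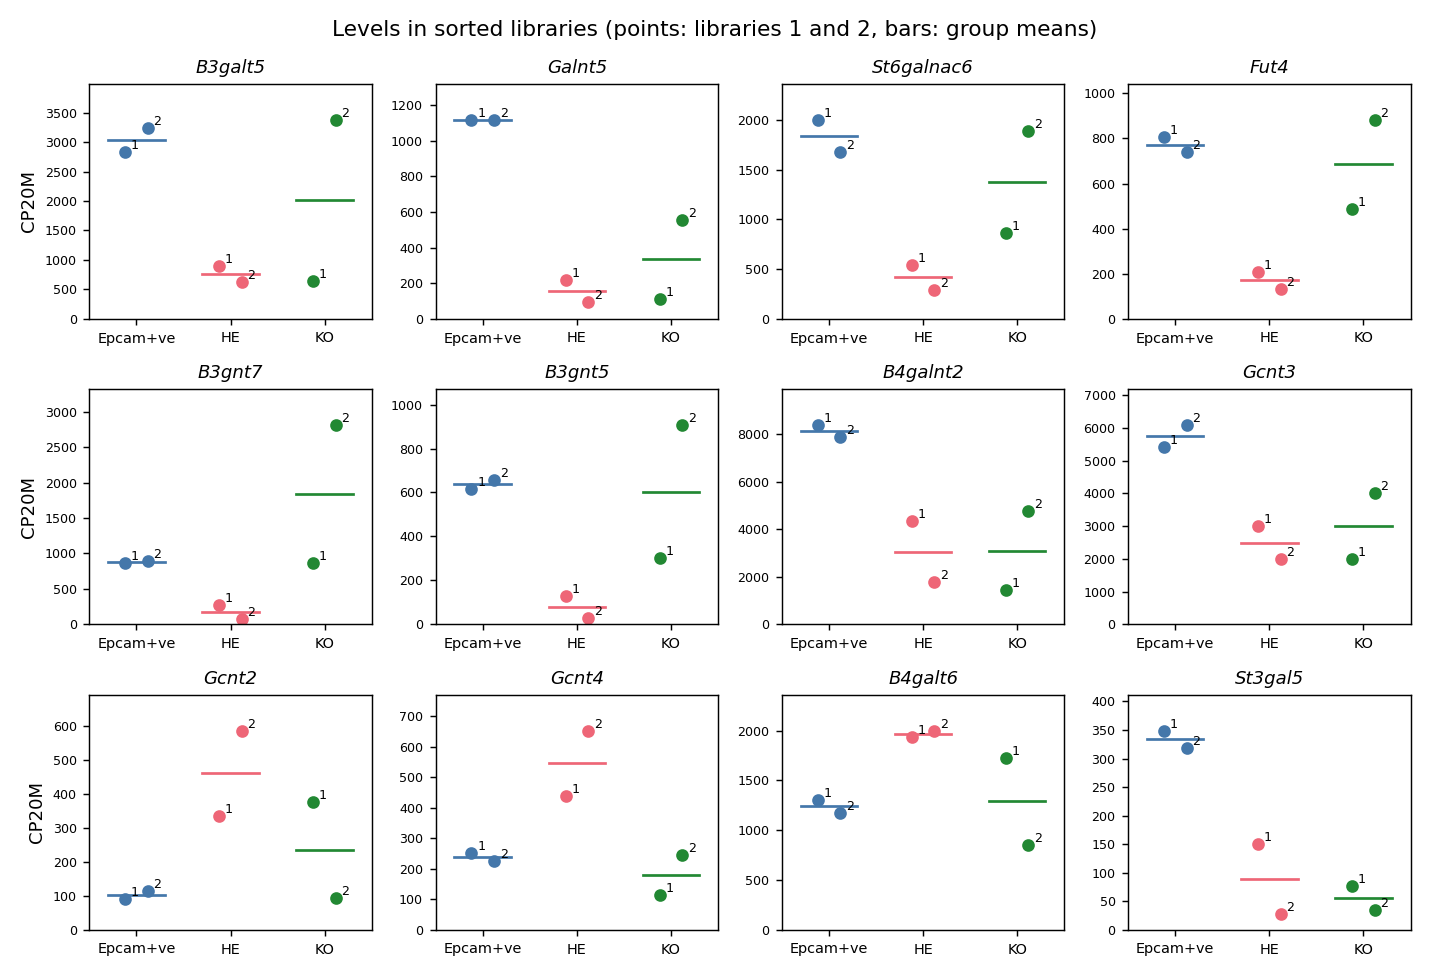
CP20M (linear axes from 0) of 12 members in the sorted libraries, with points for libraries 1 and 2 of each group and bars at the group means. In the upper 8 panels both HE pools lie below both Epcam+ve samples and KO pool 2 lies above KO pool 1, while the group means of *Gcnt2*, *Gcnt4* and *B4galt6* are highest for the HE pools.

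The third comparison asked whether crypts titled KO or eKO, called deficient by title below, differed from those of WT and control mice. Over both lines, with the line as a covariate, no member passed an adjusted p of at most 0.2 with a change beyond 1.5-fold (0 of 57 tested by limma, edgeR or DESeq2, against 0.0243% of 16447 genes by limma, 0.00608% higher and 0.0182% lower). At an unadjusted p under 0.05 there were 6 members, where 7.7% of all genes had one. The median log2 fold change was 0.09 over the members and 0.03 over all genes.

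*B3galt5* had 7153 and 5509 CP20M in WT crypts and 9467, 9470, 10656, 8454 and 7537 in KO crypts. In the other line it had 6068, 6727 and 6277 CP20M in control and 8253 and 8761 in eKO crypts. All 7 libraries labelled KO or eKO were above all 5 controls, at log2FC 0.48 (SE 0.10, limma adjusted p = 0.496). Its ratio of means was 1.44 in the Olfr78-GFP line and 1.34 in the other. Counted as a control by its genotype label, the library labelled eKO 2, at 8761 CP20M, would lie above the other eKO library, at 8253.

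*St3gal5* had 331 and 709 CP20M in WT crypts and 202, 253, 152, 24 and 193 in KO crypts. In the other line it had 376, 347 and 263 CP20M in control and 80 and 175 in eKO crypts. All 7 libraries labelled KO or eKO were below all 5 controls, at log2FC -1.60 (SE 0.44, limma adjusted p = 0.507). The ratio of means was 0.317 in the Olfr78-GFP line and 0.388 in the other, and 24 CP20M came from 10 reads. The goblet cell marker *Reg4* was likewise below all 5 controls in all 7 of these libraries (log2FC -1.56, SE 0.37, limma adjusted p = 0.496), while the other 9 markers of that list overlapped, and its part in the difference of *St3gal5* was not tested. Without the library labelled eKO 2 the log2FC was -1.82 for *St3gal5* and 0.48 for *B3galt5*. Counted as a control by its genotype label, that library, at 175 CP20M of *St3gal5*, would lie below the KO values of 202, 253 and 193.

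Members without overlap in the same direction within both lines numbered 3 of the 57 tested, *B3galt5* and *Galnt10* above and *St3gal5* below their controls. Over all genes tested, 0.796% were above and 0.395% below their controls in both lines. *Galnt10* had 2051 and 1924 CP20M in WT and 2444, 2481, 3007, 2251 and 2182 in KO crypts, and 2462, 2174 and 2340 in control and 3120 and 2665 in eKO crypts (log2FC 0.31, SE 0.09, limma adjusted p = 0.57). The other genes did not separate deficient from control crypts in both lines. *St3gal3* came next after *B3galt5* and *Galnt10* among members higher in deficient crypts by p-value (log2FC 0.47, SE 0.15, adjusted p = 0.597). *St8sia4*, which makes polysialic acid, and *B4galnt2* followed *St3gal5* among the lower ones, at -0.49 and -0.16 on the log2 scale (adjusted p = 0.674 and 0.691). *B3gnt6* and *B3gnt7* had log2 fold changes of 0.32 and -0.02 (SEs 0.17 and 0.23). With eKO mouse 1 left out, *St3gal3* and *St3gal5* passed the call (log2FC 0.66 and -1.46, adjusted p = 0.0263 and 0.0936, limma). These were 3.51% of the members, where 6.92% of all genes passed, and the library labelled eKO 2 was then the only eKO library. Without the library labelled eKO 2 no member passed, where 0.196% of all genes did.

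**Figure D4:**
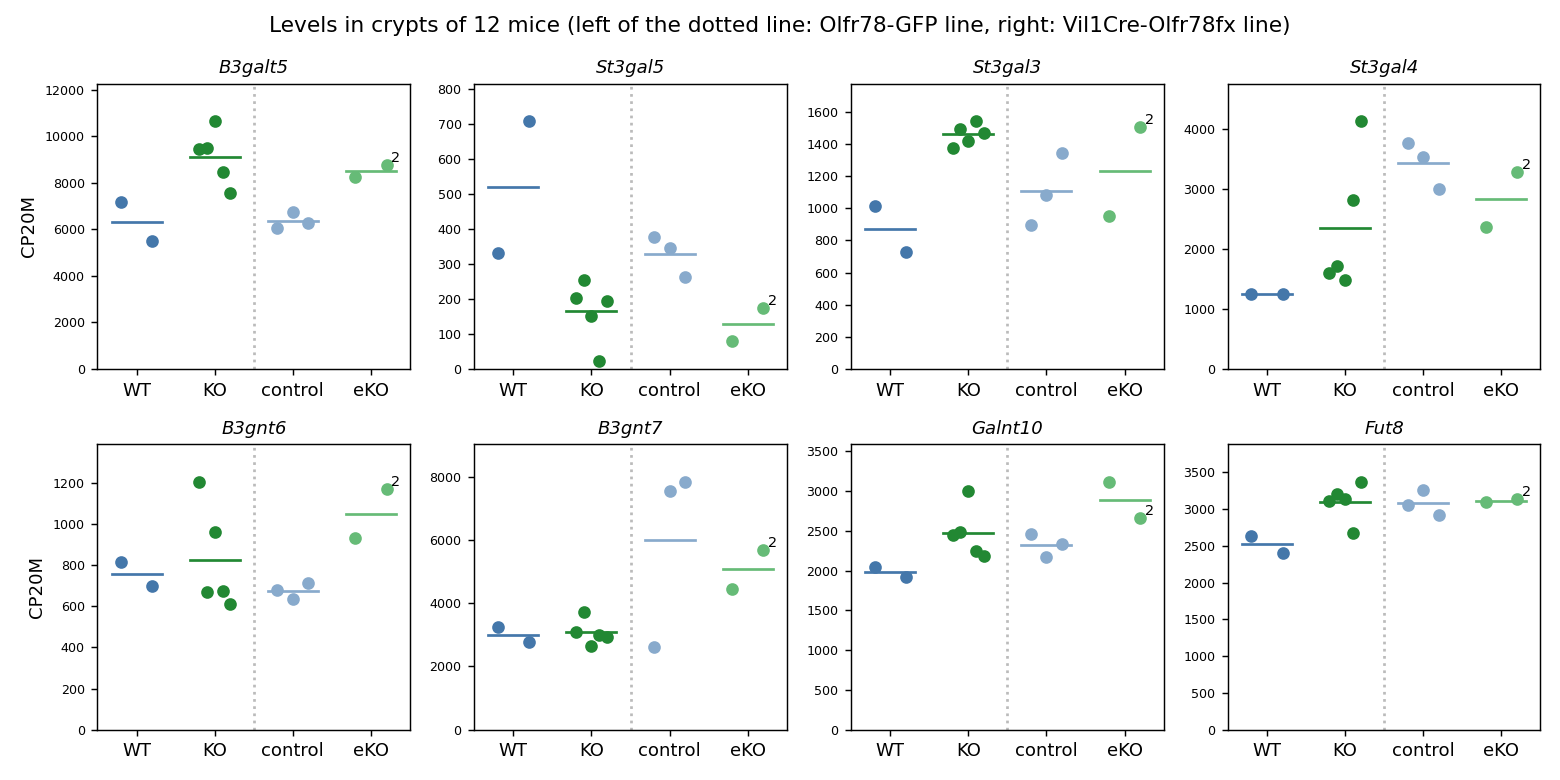
CP20M (linear axes from 0) of 8 members in the crypts of 12 mice, with points for mice and bars at the group means, and the library labelled eKO 2 marked with a 2. All 7 KO and eKO points lie above the 5 WT and control points for *B3galt5* and below them for *St3gal5*, while *St3gal3* and *St3gal4* separate the KO from the WT crypts but not the eKO from the control crypts.

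Within the Olfr78-GFP line, 2 sialyltransferases were higher and 1 lower in KO than in WT crypts, of 56 members tested. That is 5.36% of the members, below the 9.48% called over the 15975 genes tested (7.95% higher and 1.53% lower). At an unadjusted p under 0.05 there were 11 members, where 25.9% of all genes had one. Without overlap 8 members were higher and 2 lower, as were 18.2% and 13.1% of all genes. *St3gal3* had 1012 and 729 CP20M in WT crypts and 1378, 1494, 1419, 1545 and 1469 in KO crypts (log2FC 0.76, SE 0.12, limma adjusted p = 0.00681). *St3gal4* had 1244 and 1245 CP20M in WT crypts and 1597, 1717, 1481, 2815 and 4142 in KO crypts (log2FC 0.79, SE 0.31, limma adjusted p = 0.135). *St3gal5* was the one called lower (log2FC -1.78, SE 0.61, limma adjusted p = 0.0921). The KO values of *St3gal3* lay close together, those of *St3gal4* spread over a wide range, and neither gene's values overlapped between the genotypes.

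These calls leaned on few mice. With WT mouse 2 left out none of the 3 was called, and the log2 fold changes were 0.52 for *St3gal3*, 0.79 for *St3gal4* and -1.24 for *St3gal5*, and DESeq2 called *St3gal3* alone. The call of *St3gal4* was lost under 8 of 15 alternatives, also without WT mouse 1 (adjusted p = 0.383), KO mouse 4 (0.203) or KO mouse 5 (log2FC 0.56), without the trend (0.247) and with the replicate block (log2FC 0.41). *B3galt5* had an adjusted p of 0.0367 from limma but log2FC 0.53 (SE 0.14), under the 1.5-fold of the call. *Fut8* (log2FC 0.30, SE 0.10) and *B4galnt2* (-0.26, SE 0.11) had adjusted p-values of 0.0886 and 0.148 and were likewise too small in size, and *Galnt4*, which shares its span with *Poc1b*, overlapped between WT and KO crypts. *B3gnt7*, with 3239 and 2768 CP20M in WT and 3104, 3728, 2663, 2988 and 2947 in KO crypts, and *B3gnt6*, with 818 and 698 CP20M in WT and 1207, 668, 964, 677 and 609 in KO crypts, overlapped between the genotypes. Leukocyte markers summed to 919 and 792 CP20M in WT and 410 to 715 in KO crypts, and 3 of the 6 tested were called lower, while the goblet cell markers summed to 461705 and 401074 in WT and 384849 to 663906 in KO crypts. The goblet cell sum was mostly *Muc2*, and *Reg4*, another gene of that list, moved otherwise. *Reg4* had 10830 and 13902 CP20M in WT and 4192, 5127, 4705, 907 and 4251 in KO crypts (log2FC -1.89, SE 0.51, limma adjusted p = 0.0431), and 11263, 8513 and 7858 in control and 3046 and 5305 in eKO crypts. Its values in libraries labelled KO or eKO were all below those of the controls, as for *St3gal5*, and KO mouse 4 had the lowest value of both genes. Of the 8 colonocyte markers 1 was called lower, *Slc37a2* (log2FC -1.38, SE 0.35, limma adjusted p = 0.0341), though its WT and KO values overlapped. Another, *Ceacam20*, was called higher (log2FC 0.61, SE 0.13, limma adjusted p = 0.0178). The part of these markers in the differences of sialyltransferases was not tested.

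In the Vil1Cre-Olfr78fx line, 0 of 56 members passed in eKO against control crypts (limma, as for 0% of 15401 genes, and 0 members by edgeR or DESeq2), and 4 members had an unadjusted p under 0.05, as did 0.825% of all genes. Without overlap 8 were higher and 4 lower, as were 7.58% and 2.79% of all genes. *St3gal5* had the smallest p of the members (log2FC -1.38, SE 0.33, limma adjusted p = 1). *B3gnt6* had 678, 638 and 715 CP20M in control and 931 and 1170 in eKO crypts (log2FC 0.62, SE 0.16). *Fut1*, a second H antigen fucosyltransferase, had 27, 22 and 31 CP20M in control and 80 and 48 in eKO crypts, from 10 to 13 and 31 and 26 reads. These 3 genes did not overlap between control and eKO crypts. *St8sia4* had 79, 61 and 41 CP20M against 31 and 26, and *St3gal6*, a further sialyltransferase of lactosamine chains, 2629, 4445 and 3379 against 2696 and 2578. *B3gnt7* had 2614, 7541 and 7851 CP20M in control and 4467 and 5687 in eKO crypts, and control mouse 1 stood apart from the other control mice for it. With the library labelled eKO 2 left out, 0 of 53 members passed, and the log2 fold change of *St3gal5* was -1.90.

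Whether the effect of the genotype differed between the lines was tested as an interaction. No member passed an adjusted p of at most 0.2 (limma, edgeR and DESeq2, 0 of 57, against 0.0304% of 16447 genes by limma), and 4 members had an unadjusted p under 0.05, as did 8.77% of all genes. *St3gal4* and *St3gal3* had the smallest p-values, with differences (eKO effect minus KO effect) of -1.08 and -0.63 on the log2 scale (SEs 0.46 and 0.27, adjusted p = 0.557 for both). *St3gal4* had 3773, 3535 and 3008 CP20M in control and 2377 and 3291 in eKO crypts, *St3gal3* 897, 1084 and 1342 in control and 954 and 1507 in eKO crypts, and both overlapped. *Fut8*, the third of the negative ones, had 2629 and 2408 CP20M in WT, 3110, 3210, 3130, 2677 and 3373 in KO, 3059, 3253 and 2920 in control and 3089 and 3140 in eKO crypts. The difference was -0.11 for *B3galt5* (SE 0.21) and 0.40 for *St3gal5* (SE 0.90), and 0.54 and -0.13 for *B3gnt6* and *B3gnt7*. *Fut1*, *Galnt2* and *Galnt4* were the positive members with the smallest p (the first 2 with differences of 1.08 and 0.47). Without the library labelled eKO 2, 7 of 56 members passed (12.5%), 3 with a positive and 4 with a negative difference, among them *St3gal3* and *St3gal4*, where 26.3% of all genes did, and eKO mouse 1 then stood alone for its group.

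**Figure D5:**
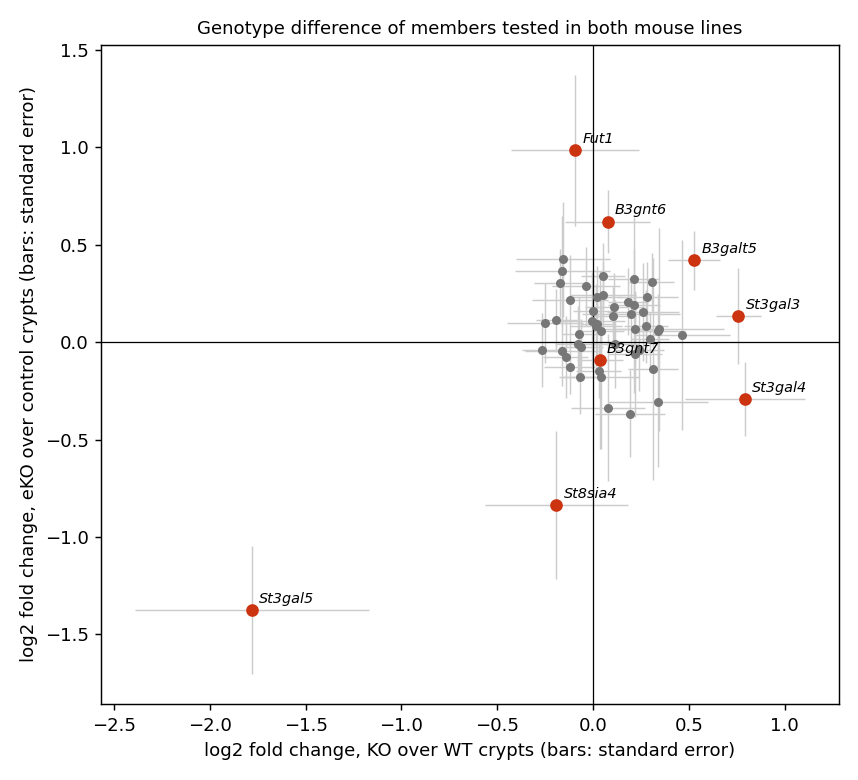
Log2 fold changes (log2(CP20M + 10) scale) of KO over WT crypts and of eKO over control crypts with their standard errors, for the 55 members tested in both lines, with 8 named. *St3gal5* lies below 0 and *B3galt5* above 0 on both axes, while *St3gal4* lies at 0.79 on the first and -0.29 on the second.

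Few other genes of the pathway passed in crypts. Over both lines, in eKO against control crypts and in the interaction, 0 of the donor sugar genes (20, 18 and 20 tested), 0 of 6 chaperone, sulfotransferase and sialidase genes and 0 of 10 mucin genes passed. Between KO and WT crypts 0 of 19 donor sugar genes and 0 of 6 chaperone, sulfotransferase and sialidase genes passed, and 3 of 10 mucin genes did. The mucin *Muc3a* had 2389 and 2069 CP20M in WT and 3291 to 4202 in KO crypts (log2FC 0.73, SE 0.10, limma adjusted p = 0.0049). *Muc6*, a gel-forming mucin, had 182 and 163 CP20M in WT and 220 to 561 in KO crypts (log2FC 1.26, SE 0.29). *Muc16* had 933 and 1528 CP20M in WT and 116 to 852 in KO crypts (log2FC -1.59, SE 0.52). None of these 3 mucins' values overlapped between WT and KO crypts, where 18.2% of all genes were higher and 13.1% lower without overlap. *Muc3* and *Muc3a* are listed as separate genes, and reads shared between similar mucins could have been split or dropped by the counting.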

How the data were processed

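RNA of sorted colon epithelial cells (6 libraries) and of colon crypts (12 libraries) was sequenced after the Ovation Solo preparation. The authors aligned reads to GRCm38 with STAR, counted them per gene of Ensembl 90 with HTSeq and scaled each library to 20000000 reads, rounding up. Whether counting used strand is not given in the sources used here, so overlapping genes on opposite strands cannot be told apart. The deposited values, called CP20M, came in 2 tables, 1 with the sorted libraries and the WT and KO crypts and 1 with the control and eKO crypts. Both tables give CP20M on the same scale, 1 recorded here as a deposited signal and 1 as deposited rounded scores. In each of the 18 libraries 99.8% or more of the values were whole multiples of 1 read. Sorted and crypt libraries were never tested against each other.

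Differences were tested with limma 3.58.1 (R 4.3.3, trend on) on log2(CP20M + 10), which understates the change of low genes, with Benjamini-Hochberg adjustment over all genes that had at least 40 CP20M in at least 2 libraries, or above 40 in all 4 pools for KO against HE. A call was an adjusted p under 0.05 in sorted cells, an adjusted p of at most 0.2 with a change beyond 1.5-fold in crypts, and an adjusted p of at most 0.2 for the interaction. P-values measure the spread between these libraries, which for the 2 samples of 1 mouse is technical. The scripts were tested on simulated data.

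Alternatives were other pseudocounts, no filter, no trend, median-of-ratios rescaling, edgeR 4.0.16 and DESeq2 1.42.0 on the recovered reads, a replicate block, other samples in the fit and leaving out each library. A pairing of the pools with the numbers crossed was chosen after seeing the data. Replicate numbers were treated as not pairing samples.

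The members and lists were chosen with earlier results of these data known. Named were *B3gnt7*, *B3gnt6*, *St3gal5*, *B3galt5* and *Olfr78*, up to 12 called members a comparison and direction by smallest p, the 3 with the smallest p in each direction where fewer than 6 were called, and up to 3 called genes a list and direction of the other pathway genes. Others, such as those that complete the count of a family, were named after their values were seen.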

Additional observations from a re-analysis of the deposited data

Results flagged for a closer look

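The KO crypts, with 5 libraries, were the only group large enough to look for a single library far from the others. Of 26 quantities examined in it 1 stood out, and chance gives about 1 in 20. The markers of neurons and glia summed to 99 CP20M in KO crypt 1, with a gap to the nearest KO library of 0.734 of the group's range, against a limit of 0.710.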

How the results depend on the processing

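Of 1059 alternative values for 70 fold changes of named members, 950 kept direction and side of the call, 50 lost the call, 34 gained it and 25 changed sign. The number of called members between HE pools and Epcam+ve samples went from 24 to 10 without the trend, 6 with all 6 sorted libraries in a fit, and 12 to 29 leaving out single libraries, with 23.8% of all genes called at first and 12.3%, 8.96% and 11.8% to 32.8% then. For KO against HE pools it went from 0 to 1 with DESeq2 (0.0673% of all genes) and 2 with the crossed pairing (0.715%), with the counts for a left-out KO pool given above. For KO pools against Epcam+ve samples it was 6 with a replicate block (6.34% of all genes) and 0 to 28 leaving out libraries (45.3% at 28). In crypts of both lines it was 1 with the replicate block (*St3gal5*, 0.164% of all genes) and 0 to 2 leaving out libraries (6.92% at 2). For KO against WT crypts it was 1 with DESeq2 (8.07% of all genes) and 0 to 3 leaving out libraries, and 0 to 7 for the interaction (26.3% of all genes at 7), which had no fit with the replicate block. The cause was not tested.

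Signs turned when single libraries were left out for *B3galt5* in KO against HE pools (-0.23 to 2.16) and against Epcam+ve samples (-2.23 to 0.16), *B3gnt7* in KO pools against Epcam+ve samples (-0.02 to 1.67), in both crypt lines (-0.23 to 0.10), in KO against WT crypts (-0.078 to 0.15) and in eKO against control crypts (-0.61 to 0.18), *B3gnt6* in KO against WT crypts (-0.073 to 0.19), and the interaction of *B3galt5* (-0.30 to 0.081), *St3gal5* (-0.14 to 0.94) and *B3gnt7* (-0.64 to 0.15). *B3gnt7* also turned to 0.18 with the replicate block in both lines and in eKO crypts, and to -0.029 with rescaling in KO against WT crypts. Rescaling moved the median of all genes by 0.14 for the KO pools against either group. Depth limits what the sorted libraries show of members with few reads, KO pool 1 most of all.

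Replicate numbers come from titles alone, and the deviations of same-numbered libraries correlated at 0.03 for Epcam+ve and HE, -0.162 for HE and KO pools, 0.023 for Epcam+ve and KO, 0.061 and -0.103 for WT and KO crypts and 0.589 and 0.363 for control and eKO crypts. With the replicate block 26 members were called between HE pools and Epcam+ve samples, as were 27.4% of all genes. Among all genes, the recovered reads gave 4482 calls there with edgeR against 3892 with limma. Leaving out eKO mouse 1 raised the calls over both crypt lines from 4 to 1134 genes, and leaving out the library labelled eKO 2 raised those of the interaction from 5 to 4296. The cause was not tested.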
